A study of Mus musculus with 6 samples.

Results

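The genes described here are 40 genes of mitosis that encode kinases, cyclins, spindle checkpoint proteins, kinetochore subunits, spindle motors and cytokinesis factors. They were chosen by symbol as a fixed list, with earlier results of these data known. Each symbol matched 1 row of the deposited table, and the table holds 52636 genes in all. Bulk RNA sequencing covered 6 untreated libraries of a derivative of MC38, a tumour line from mouse colon. In 3 libraries the genotype label reads M1E5 WT, and in 3 it reads M1E5 Zfx F5, 1 clone of a line in which Zfx, an X-linked zinc finger transcription factor gene, was targeted with CRISPR ribonucleoprotein. The name M1E5 is shared by both groups and is not explained in the labels. The design text speaks of cultured cells and the extraction text of cells sorted from tumours, and whether a group's libraries are separate cultures is not stated, so the spread behind each p-value may be technical only. With 1 clone, differences the clone had before or apart from the edit cannot be told apart from those of the edit.

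Entry into mitosis is driven by the kinase Cdk1 bound to cyclins, together with polo and aurora kinases. The spindle checkpoint then holds the anaphase-promoting complex (APC/C) inactive until kinetochores are attached to microtubules, after which Cdc20 and the APC/C destroy securin and the cyclins. Most genes of this programme are transcribed late in the cell cycle, when MuvB proteins joined to B-Myb and FoxM1 act at promoter elements called CHR (cell cycle genes homology region) and NF-Y binds CCAAT boxes. In a bulk sample, more or fewer cells in G2 and M phase cannot be told apart from more or less mRNA of such a gene in each cell.

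The libraries held 18876673 to 24241864 reads. Zfx itself measured 64.4, 69.7 and 68.9 CPM (reads per 1000000 reads) in WT and 125, 129 and 122 CPM in the libraries labelled Zfx F5. Its mRNA was thus higher and not lower in them, and 17.7% of its 50-base windows also occur in the transcripts of other annotated genes. A value per gene cannot show whether a part of the gene is deleted or altered. The label of a colon cell was checked against 14 markers of colon epithelium, of which 7, Epcam and Krt20 among them, had 0 reads in every library and only Cdh1 passed the filter on low values. The 14 colon markers summed to 0.636 to 1.07 CPM in WT and 3.95 to 4.18 CPM in Zfx F5. Cdh1 was 2.51-fold higher in Zfx F5 (limma adjusted p = 2.83e-05). Krt8, below the filter, had 0 reads in every WT library and 39, 34 and 41 reads in the Zfx F5 libraries. Markers of other cell types differed between the groups as well. Their summed level over 11 fibroblast markers was 1250 to 1290 CPM in WT and 3430 to 3550 CPM in Zfx F5, with Thy1 at 0 and 6 of the 11 kept. Col3a1 carried that sum (874 to 3335 CPM), and the kept markers split into 3 higher and 3 lower, with Pdgfra (247 to 78.6 CPM) and Dcn (120 to 33.9 CPM) among the lower. Over 9 endothelial markers it was 13.0 to 13.9 against 33.9 to 39.2 CPM, with Kdr, Tek and Cldn5 at 0 and 2 kept. Over 10 myeloid markers it was 11.0 to 13.7 against 25.6 to 27.9 CPM, with Adgre1 and Tyrobp at 0 and 3 kept. Lyz2 carried it (0.436 to 15.3 CPM), and the other kept markers, Cd14 and Cd68, did not pass the test. The 8 lymphocyte markers summed to at most 0.425 CPM in any library. Their part in the results below was not tested.

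Promoters of those of the 40 genes that had an entry were searched for motifs, which the choice of the list did not use. CHR elements and CCAAT boxes are known from late cell cycle genes such as these, so a high share was foreseen. RefSeq promoter windows on GRCm38.p6, from 250 bases before to 50 bases after the start, were found for 32 of the genes as 35 windows. A CCAAT box (CCAAT, either strand) stood in 28 of them, or 80%, against 37.4% of all 32851 windows. A CHR element (TTTGAA or TTCGAA, either strand) stood in 28, or 80%, against 19.2% of all windows, and both motifs stood together in 71.4% against 7.52%. CCAAT and the CHR letters cannot be the same match, while TTCGAA reads alike on both strands and was counted once. Of the 37 CHR matches, 27 began within 50 bases of the start, as did 23 of the 64 CCAAT matches. A site in overlapping windows of the same gene was counted once per window. These positions were not compared with those in all windows. AGGCCT, the core letters of the motif known for ZFX, stood in 5 windows (14.3%) against 10.3% of all. A match is a string of letters and does not show that a factor binds.

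The 250 bases before the start are shown for the 3 genes with the largest rise that hold both motifs in the window, with CCAAT boxes and CHR elements in capitals. Cdc20, the activator of the APC/C, has its CHR element between a pair of CCAAT boxes just before the start. In Plk1 and Spc25 only CCAAT boxes lie before the start, and the CHR element follows it.
Cdc20 (chr4:118437344-118437593, minus strand): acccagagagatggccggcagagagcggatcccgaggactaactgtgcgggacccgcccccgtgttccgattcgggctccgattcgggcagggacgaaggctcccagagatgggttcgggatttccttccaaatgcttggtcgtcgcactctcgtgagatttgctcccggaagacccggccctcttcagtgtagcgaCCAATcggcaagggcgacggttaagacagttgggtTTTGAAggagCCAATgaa
Plk1 (chr7:122159185-122159434, plus strand): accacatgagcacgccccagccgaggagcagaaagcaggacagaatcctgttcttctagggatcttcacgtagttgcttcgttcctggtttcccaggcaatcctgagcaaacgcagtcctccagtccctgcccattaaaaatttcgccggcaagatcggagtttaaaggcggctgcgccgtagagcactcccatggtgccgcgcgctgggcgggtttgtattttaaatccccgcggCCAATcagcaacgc
Spc25 (chr2:69206214-69206463, minus strand): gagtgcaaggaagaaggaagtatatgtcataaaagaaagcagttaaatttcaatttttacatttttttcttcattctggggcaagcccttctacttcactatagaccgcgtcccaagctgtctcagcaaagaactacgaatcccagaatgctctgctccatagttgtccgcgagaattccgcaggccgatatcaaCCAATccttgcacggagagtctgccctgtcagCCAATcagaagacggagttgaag

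CHR elements are shown with 10 bases on each side and the element in capitals, so that the sites of genes that rose can be read beside those of genes that fell. The letters in capitals are those searched for and are alike by construction. Plk1, Spc25 and Ccnb2 (cyclin B2) rose, whereas Cdk1, Kif23 (a kinesin of the central spindle) and Cdc25b, whose site has the TTCGAA form, fell. The site of Bub1, which rose and is not shown, has the TTCGAA form as well.
Plk1 (chr7:122159455-122159480, plus strand): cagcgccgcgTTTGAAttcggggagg
Spc25 (chr2:69206174-69206199, minus strand): cggtggagagTTTGAAattgaaagac
Ccnb2 (chr9:70421535-70421560, minus strand): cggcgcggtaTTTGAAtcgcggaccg
Cdk1 (chr10:69352912-69352937, minus strand): ccgcggcgagTTTGAAactgctggca
Kif23 (chr9:61946782-61946807, minus strand): gattggcctgTTTGAAatgcgccggg
Cdc25b (chr2:131186945-131186970, plus strand): gctgttatttTTCGAAtatataagga

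Of the 32 genes with a window, 22 held both motifs in at least 1 window, of which 14 were higher, 3 lower and 5 not called, with a median log2 difference of 0.17. The other 10 had 6 higher, 2 lower and 2 not called, with a median of 0.15. Over all 12279 genes tested, 37% were higher and 35.9% lower, so a call is common in these data. Pttg1, the gene with the largest rise, held neither motif.

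Most of the 40 genes were modestly higher in Zfx F5, and a few, led by Foxm1, were lower. All 40 passed the filter on low values. In limma, with p-values adjusted over all genes, 26 were higher (65%, against 37% of all 12279 genes tested), 6 were lower (15%, against 35.9%) and 8 did not pass. Called genes of either direction made up 80% of the list and 72.9% of all genes, and 79.3% of the 8163 genes at or above the level of the lowest member, so the share called was near the background while its directions were unequal. Among those 8163 genes 38.4% were higher and 40.9% lower. The median log2 difference was 0.18 over the list and 0.02 over all genes tested. The groups did not overlap for 27 genes higher in Zfx F5, where 37.8% of all genes did so, and for 6 lower ones, where 36.5% did (74.3% in either direction). The differences were small: only 6 of the 40 were called with a log2 difference of at least 0.5 in size, or 15%, against 30.7% of all genes. That 30.7% covers genes of every level tested, and no such share is given for the 8163 genes alone. Together the 40 genes took 0.522% to 0.537% of reads in WT and 0.587% to 0.590% in Zfx F5. Their median within-group SD was 0.0471 on the log2 scale, against 0.0693 over all genes tested. The 40 genes also lay at higher levels, with a median log2 value of 6.93 against 5.15, and no SD at like levels is given.

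**Figure D1:**
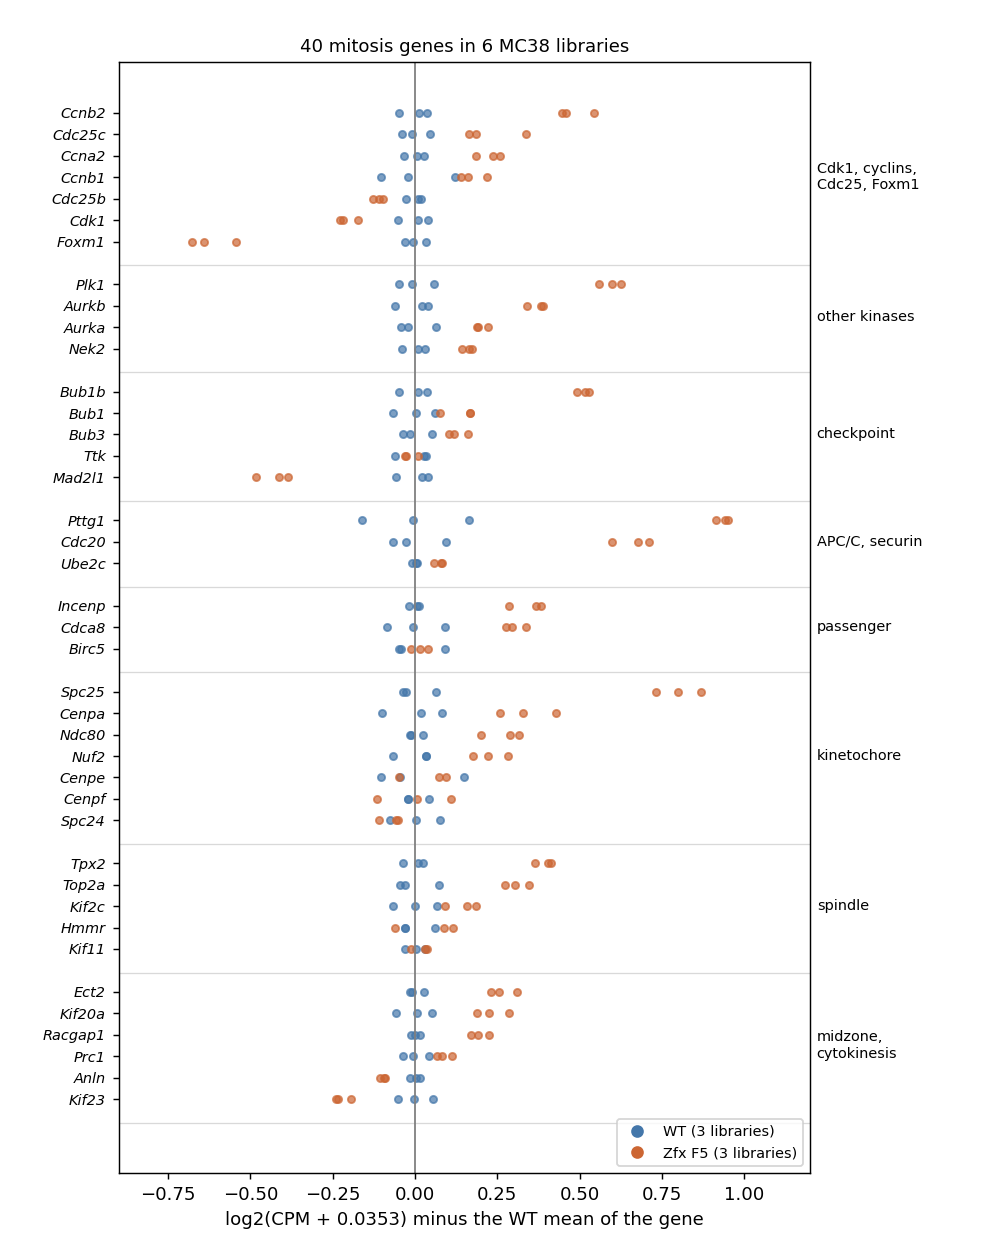
Each point is 1 library, placed by its log2(CPM + 0.0353) value minus the WT mean of that gene, with WT in blue and Zfx F5 in orange and the 40 genes ordered by role. Most orange points lie to the right of the blue ones, while Foxm1, Mad2l1, Kif23, Cdk1, Cdc25b and Anln lie to the left.

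**Figure D2:**
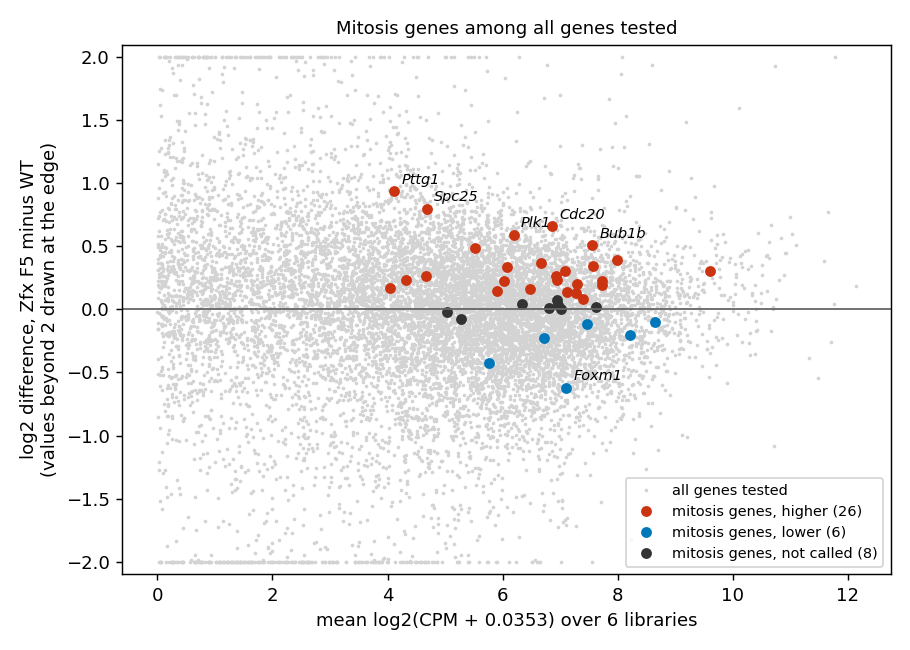
The log2 difference of Zfx F5 minus WT (vertical axis, values beyond 2 drawn at the edge) is plotted against the mean log2(CPM + 0.0353) of the 6 libraries for all 12279 genes tested in grey and the 40 mitosis genes in colour. The 40 genes lie at moderate to high levels, and Pttg1 and Foxm1 are the highest and lowest of them.

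Among Cdk1, its cyclins, its activating phosphatases and Foxm1, cyclins were higher while the kinase and the transcription factor were lower. Foxm1 (ENSMUSG00000001517, chromosome 6 from 128362967 to 128376146 on mm10), which encodes the activator of late cell cycle genes, measured 170, 174 and 167 CPM in WT and 109, 106 and 117 CPM in Zfx F5. Every Zfx F5 library was lower than every WT library, by -0.62 on the log2 scale (SE 0.0389, 95% interval -0.70 to -0.54, limma adjusted p = 4.32e-15). Cdk1 (ENSMUSG00000019942, chromosome 10 from 69335146 to 69352938), the kinase that starts mitosis, measured 326, 306 and 319 CPM against 272, 281 and 270 CPM. The groups did not overlap, and the log2 difference was -0.21 (SE 0.0331, limma adjusted p = 1.97e-06).

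The cyclin genes moved the other way. Ccnb2 rose 1.40-fold, from a mean of 38.8 to 54.2 CPM (log2 difference 0.48, SE 0.0508, limma adjusted p = 6.22e-10). Ccna2, which encodes cyclin A2 of S and G2 phase, rose 1.17-fold, from 197 to 230 CPM (limma adjusted p = 6.61e-07). Ccnb1, the gene of cyclin B1, had means of 15.6 and 17.5 CPM and differed by 0.17 on the log2 scale (SE 0.0768, limma adjusted p = 0.0441). That call for Ccnb1 was lost under 10 of 17 alternatives, TMM scaling (0.0952) among them, and without any of 5 libraries, with adjusted p of 0.194 without WT replicate 2, 0.0812 without WT replicate 3, 0.135 without Zfx F5 replicate 1, 0.0699 without Zfx F5 replicate 2 and 0.0600 without Zfx F5 replicate 3. Of the Ccnb1 windows of 50 bases, 23.4% also occur in 6 other annotated genes, Ccnb1-ps first among them, so its level is uncertain. The phosphatase genes that switch Cdk1 on split: Cdc25c had means of 18.5 and 21.7 CPM (1.17-fold higher, limma adjusted p = 0.00449), and Cdc25b had 185 and 171 CPM (1.08-fold lower, limma adjusted p = 0.00431). The Cdc25c call was lost without Zfx F5 replicate 1 (limma adjusted p = 0.0513), and the Cdc25b call was lost with quantile normalization (0.342).

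All 4 polo, aurora and NEK kinase genes on the list rose, Plk1 most. Plk1 (ENSMUSG00000030867, chromosome 7 from 122159439 to 122169873), the polo kinase of centrosome maturation and mitotic entry, measured 61.8, 59.0 and 57.5 CPM in WT and 89.8, 87.5 and 91.7 CPM in Zfx F5. The groups were far apart relative to their spread, with a log2 difference of 0.59 (SE 0.0437, 95% interval 0.50 to 0.68, limma adjusted p = 2.00e-13). Aurkb, the kinase of the chromosomal passenger complex, rose 1.29-fold from 89.2 to 115 CPM (log2 difference 0.37, SE 0.0401). Aurka, the kinase of the spindle poles, rose 1.15-fold from 145 to 167 CPM, and Nek2, a kinase of centrosome separation, rose 1.12-fold from 84.4 to 94.2 CPM (limma adjusted p = 0.000783).

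Spindle checkpoint genes did not move as a block. Bub1b (ENSMUSG00000040084, chromosome 2 from 118598211 to 118641591) encodes BubR1, a part of the complex that inhibits the APC/C, and measured 158, 152 and 161 CPM in WT and 227, 221 and 225 CPM in Zfx F5. Its log2 difference was 0.51 (SE 0.0347, limma adjusted p = 2.73e-14), and the groups did not overlap. Mad2l1 (ENSMUSG00000029910, chromosome 6 from 66535390 to 66547220) encodes Mad2, another part of the same complex, and measured 63.9, 60.5 and 64.8 CPM against 47.3, 48.2 and 45.1 CPM. All Zfx F5 libraries were lower here, at -0.43 on the log2 scale (SE 0.0482, limma adjusted p = 2.76e-09). The kinase gene Bub1 (132 to 146 CPM, 1.10-fold) and Bub3 (148 to 161 CPM, 1.09-fold), whose protein binds both Bub1 and BubR1, rose slightly. Ttk, which encodes the checkpoint kinase Mps1, had means of 32.9 and 32.5 CPM, and its 95% interval of -0.13 to 0.10 on the log2 scale leaves room for only small differences (limma adjusted p = 0.800).

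The genes of mitotic exit held the largest rise on the list. Pttg1 (ENSMUSG00000020415, chromosome 11 from 43420250 to 43426251) encodes securin, the inhibitor of separase, and measured 14.0, 12.4 and 11.2 CPM in WT and 24.0, 23.6 and 24.2 CPM in Zfx F5. This was the largest difference on the list, 0.94 on the log2 scale (SE 0.0789, 95% interval 0.77 to 1.10, limma adjusted p = 4.73e-12), from 833 WT and 1525 Zfx F5 reads. Cdc20 (ENSMUSG00000006398, chromosome 4 from 118432901 to 118437352) measured 90.3, 98.2 and 87.9 CPM against 151, 139 and 147 CPM. The groups did not overlap, and Cdc20 rose by 0.66 on the log2 scale (SE 0.0427, limma adjusted p = 2.00e-14). Ube2c, the ubiquitin-conjugating enzyme of the APC/C, measured 120, 119 and 120 CPM against 127, 126 and 125 CPM. Its groups did not overlap, yet its log2 difference of 0.07 (SE 0.0365) did not pass (limma adjusted p = 0.0758), and it did pass with median centring (0.0168) and quantile normalization (0.000149).

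**Figure D3:**
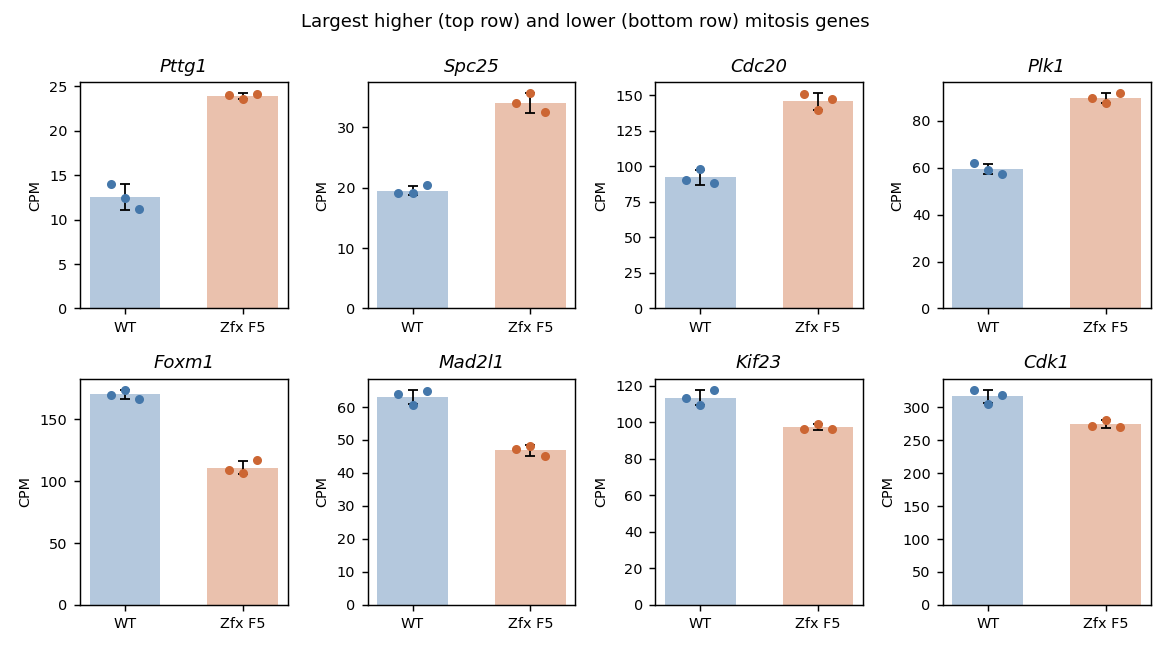
CPM in each library (points), with the group mean (bar, from 0) and SD (line, n = 3), for the 4 genes with the largest rise in the top row and the 4 with the largest fall in the bottom row. In all 8 panels the 3 Zfx F5 libraries lie wholly above or wholly below the 3 WT libraries.

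In the chromosomal passenger complex, which corrects faulty attachments and guides cytokinesis, 3 of the 4 subunits rose. Incenp (ENSMUSG00000024660, chromosome 19 from 9872296 to 9899551), the scaffold that activates Aurkb, measured 169, 170 and 166 CPM in WT and 217, 205 and 220 CPM in Zfx F5. Every Zfx F5 value was above every WT value (log2 difference 0.35, SE 0.0352, limma adjusted p = 3.15e-10). Cdca8, which encodes borealin, rose 1.23-fold from 122 to 150 CPM, close to Aurkb in size. Birc5, the gene of the subunit survivin, had means of 111 and 112 CPM and overlapping groups (log2 difference 0.01, 95% interval -0.07 to 0.10, limma adjusted p = 0.766).

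At the kinetochore, subunits of the 4-part Ndc80 complex, which grips microtubules, differed from each other. Spc25 (ENSMUSG00000005233, chromosome 2 from 69193895 to 69206194) measured 19.1, 19.0 and 20.4 CPM in WT and 33.9, 35.6 and 32.4 CPM in Zfx F5. This was a clear separation of the groups, at 0.80 on the log2 scale (SE 0.0633, limma adjusted p = 1.12e-12). Its direct partner Spc24 measured 42.0, 39.9 and 37.7 CPM against 38.5, 36.9 and 38.2 CPM. Those values overlapped, and the log2 difference was -0.07 (95% interval -0.18 to 0.04, limma adjusted p = 0.233). The other subunits, Ndc80 (23.2 to 28.0 CPM, 1.21-fold) and Nuf2 (60.1 to 70.4 CPM, 1.17-fold), rose by like amounts. Cenpa, the histone H3 variant that marks centromeres, rose 1.27-fold from 59.7 to 75.5 CPM (log2 difference 0.34, SE 0.0505). The kinetochore motor gene Cenpe (123 and 126 CPM) and the large coiled-coil protein gene Cenpf (130 CPM in both groups) did not pass, with 95% intervals of -0.09 to 0.17 and -0.09 to 0.09. Without WT replicate 3 the Cenpe difference was 0.11 and passed (limma adjusted p = 0.0176).

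Among spindle factors, Tpx2 and Top2a rose while the motor gene Kif11 stayed within its spread. Tpx2 (ENSMUSG00000027469, chromosome 2 from 152847964 to 152895321), the activator and spindle anchor of Aurka, measured 226, 217 and 223 CPM in WT and 295, 294 and 286 CPM in Zfx F5. The groups did not overlap (log2 difference 0.39, SE 0.0327, limma adjusted p = 3.41e-12). Top2a (ENSMUSG00000020914, chromosome 11 from 98992943 to 99024189), the topoisomerase that untangles sister chromatids, had the most reads of the list and measured 686, 679 and 736 CPM against 846, 889 and 865 CPM. Every Zfx F5 library was again higher (log2 difference 0.31, SE 0.0314, limma adjusted p = 4.39e-10). Kif2c, which encodes the microtubule depolymerase MCAK, had means of 56.7 and 62.7 CPM (limma adjusted p = 0.00812), a call lost without WT replicate 2 (0.0603). Kif11, the bipolar motor Eg5, had 197 and 199 CPM (95% interval -0.05 to 0.09), and Hmmr, a spindle assembly factor, had 79.9 and 82.6 CPM (interval -0.05 to 0.14), and neither passed.

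Genes of the central spindle and cytokinesis divided. Ect2 (ENSMUSG00000027699, chromosome 3 from 27097222 to 27153878), the exchange factor that activates RhoA at the division plane, measured 110, 110 and 113 CPM in WT and 138, 132 and 130 CPM in Zfx F5. These groups were separate (log2 difference 0.26, SE 0.0377, limma adjusted p = 2.41e-07). Racgap1, which encodes a subunit of the centralspindlin complex that recruits Ect2, rose 1.14-fold from 198 to 227 CPM (limma adjusted p = 4.91e-06). Kif23 (ENSMUSG00000032254, chromosome 9 from 61915905 to 61946774), which encodes the motor subunit of the same complex, measured 113, 109 and 118 CPM against 96.0, 99.0 and 96.4 CPM. Its Zfx F5 libraries were all lower (log2 difference -0.22, SE 0.0397, limma adjusted p = 9.61e-06). Kif20a, the motor that carries the passenger complex to the midzone, rose 1.18-fold from 114 to 134 CPM (limma adjusted p = 4.70e-06). Anln, which encodes the contractile ring protein anillin, fell 1.07-fold from 414 to 387 CPM (limma adjusted p = 0.00448), a call lost with median centring (0.0514). Prc1, a bundler of midzone microtubules, had 163 and 173 CPM (limma adjusted p = 0.0286). The Prc1 call was lost under 7 alternatives, with TMM scaling (0.166) and without WT replicate 1 (0.0506), WT replicate 2 (0.130), Zfx F5 replicate 2 (0.110) or Zfx F5 replicate 3 (0.0579) among them.

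Reads over shared exons touch several of these genes. The extraction text, which differs from the design text, names the Nextera XT kit, so whether that kit made these libraries is not known. That kit does not mark strand. If it was used, reads of genes that overlap on opposite strands cannot be told apart. Of the exon bases of Kif20a, 33.2% overlap Cdc23 on the opposite strand, and the share was 26.6% for Prc1 with Rccd1, 22.8% for Ube2c with Tnnc2 and 14.1% for Ccna2 with Exosc9. The others had less than 10% of their exon bases in another gene. Windows of 50 bases that also occur in other annotated genes made up 11.9% of Cdc25c, 10.6% of Cdc20 and 10.4% of Plk1, which shares them with Plk-ps1 and Gm44985, so these levels are uncertain to that extent.

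Ratios between partner genes within a library do not depend on the scaling of that library. They were taken for 15 pairs that were chosen after the values were seen, so they describe and do not test. The log2 ratio of Spc25 over Spc24 was -1.13, -1.07 and -0.89 in the WT libraries and -0.18, -0.05 and -0.24 in Zfx F5, a shift of 0.87. The ratio of Bub1b over Mad2l1 was 1.31, 1.33 and 1.32 in WT and 2.26, 2.20 and 2.32 in Zfx F5, a shift of 0.94. Between the centralspindlin genes, Racgap1 over Kif23 went from 0.83, 0.85 and 0.75 to 1.24, 1.23 and 1.21. Cyclin genes gained on their kinase: the shift over Cdk1 was 0.69 for Ccnb2, 0.43 for Ccna2 and 0.38 for Ccnb1. Within the passenger complex the shift over Birc5 was 0.36 for Aurkb, 0.33 for Incenp and 0.29 for Cdca8. Nuf2 over Ndc80 kept to overlapping values, from 1.28 to 1.42 in WT and from 1.26 to 1.45 in Zfx F5. Cdc20 over Bub1b overlapped as well, with a shift of 0.15.

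**Figure D4:**
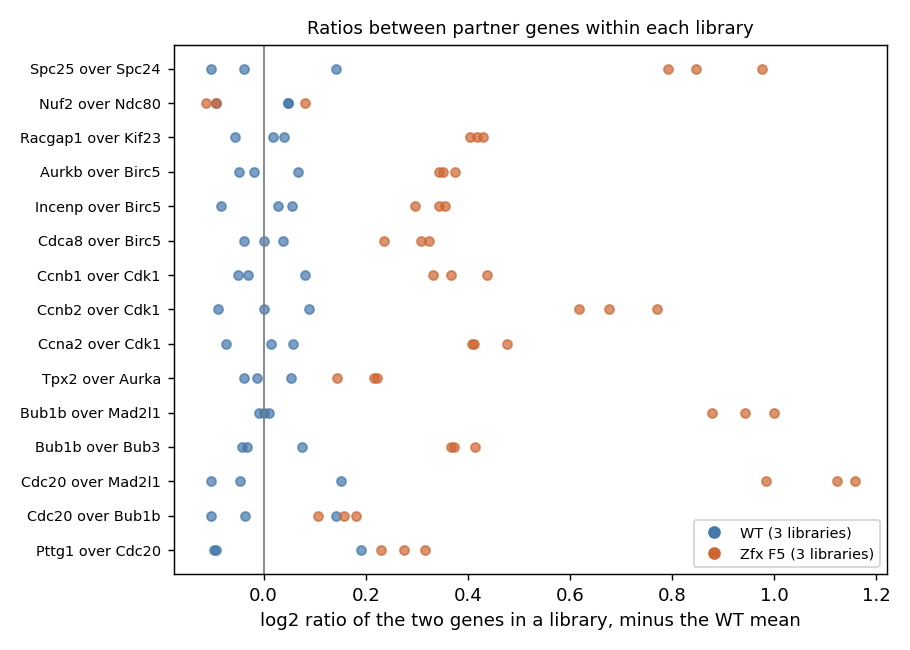
Each point is the log2 ratio of a pair of genes in 1 library minus the WT mean of that ratio, with WT in blue and Zfx F5 in orange. Nuf2 over Ndc80 and Cdc20 over Bub1b overlap between the groups, and the other 13 pairs shown are separate.

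Levels per length kept most of their order between the groups. In CPM per kilobase of exon, Top2a was highest in both groups (134 in WT and 166 in Zfx F5), with Anln (89.9 and 84.0) and Aurka (74.9 and 86.1) next, although these 2 changed places. Cdc20 moved from 11th to 4th place (51.4 to 81.2 CPM per kilobase) and Cdk1 from 4th to 10th (71.0 to 61.5), while Foxm1 moved from 18th to 28th (36.6 to 23.8). At the low end, Ccnb1 (6.25 and 7.04), Pttg1 (7.10 and 13.6), Mad2l1 (7.85 and 5.84) and Cdc25c (9.51 and 11.2) stood below 10 CPM per kilobase in at least 1 group. The exon length is that of all annotated exons of a gene joined, so a gene with long, rarely used exons appears lower.

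The signed log2 difference tended to be more positive in shorter genes. Across the 40 genes, Spearman's rho of the log2 difference with exon length was -0.56, and across all 12279 genes tested it was -0.18, values that describe these 6 shared libraries. Over all genes the median log2 difference was 0.12 for the shortest, 0.02 for the middle and -0.09 for the longest of 3 equal classes by exon length. After each library was adjusted for exon length, 28 of the 40 were higher and 6 lower. The shares of all genes called after that adjustment are not given here, so these counts have no matching background. Cenpe, Cenpf and Kif11 then passed as higher (limma adjusted p = 0.00105, 0.00119 and 0.0229) and Spc24 as lower (0.0323), while Anln (0.0806) and Ccnb1 (0.0901) did not pass. With GC content, rho was 0.19 across the 40 genes and 0.01 across 12269 genes.

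Other genes of mitosis leaned less to one side. They come from 8 lists of complexes and factors that were chosen with earlier results of these data known. Of 150 that were kept, 70 were higher (46.7%), 43 lower (28.7%) and 37 not called, with a median log2 difference of 0.07. Over all genes tested, 37% were higher and 35.9% lower. Condensin genes, which compact chromosomes, had 5 of 8 higher and 2 lower, with Ncapd2 at 1.42-fold, Ncaph at 1.40-fold and Ncaph2 at 1.23-fold. Cohesin genes, which hold sister chromatids together, had 9 of 17 higher and 5 lower, with the ring subunit Smc1a, the acetyltransferase gene Esco2 and Stag1 each higher by a log2 difference of 0.51 to 0.52. Of 35 further kinetochore genes 16 rose and 11 fell. Cenpm rose from 26.5 to 54.2 CPM (2.05-fold), and Cenpp rose 1.89-fold, whereas Zwilch, a subunit of the complex that brings checkpoint proteins to kinetochores, fell 1.52-fold. Spindle pole and microtubule genes had 16 of 31 higher and 8 lower, led by Tacc1 (2.03-fold), the augmin subunit gene Haus7 (1.82-fold) and Ckap2 (1.73-fold). Other kinesins had 5 of 10 higher and 2 lower, with Kif22 (1.36-fold), Kif15 (1.24-fold) and Kif14 (1.23-fold) ahead.

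APC/C genes had 7 of 19 higher (36.8%) and 5 lower (26.3%), against 37% and 35.9% of all genes tested. The subunit gene Anapc13 was 1.61-fold higher, and Cdc27 and Anapc4 were 1.59-fold and 1.31-fold lower. Genes of entry kinases and their control had 8 of 21 higher and 8 lower, or 38.1% each, near the shares of all genes tested. Cdc25a, the phosphatase of S phase entry, fell from 137 to 78.7 CPM (1.74-fold), and Arpp19, an inhibitor of the phosphatase PP2A in mitosis, and the kinase gene Nek7 fell 1.50-fold and 1.42-fold. Cytokinesis genes had 4 of 9 higher and 2 lower, with the septin genes Sept6 (1.58-fold) and Sept11 (1.35-fold) higher and Chmp4b, an abscission factor, 1.29-fold lower. The septins were matched by gene identifier.

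A list of cell cycle transcription factors and their partners was mostly lower. It joins factors of S phase with those of late promoters, and activators with repressors. Its counts therefore do not show regulators set against the 40 genes. Of 23 genes for E2F factors, pocket proteins, MuvB subunits, Myb factors and NF-Y, 14 were lower (60.9%), 2 higher (8.7%) and 7 not called. Over all genes tested, 35.9% were lower and 37% higher. The median log2 difference of the list was -0.17. E2f1, an activator of S phase genes, measured 161, 155 and 144 CPM in WT and 64.5, 62.9 and 63.5 CPM in Zfx F5. Its groups did not overlap (log2 difference -1.27, SE 0.0420, limma adjusted p = 4.14e-22). Tfdp2, a dimer partner of E2F factors, fell 2.20-fold, and Mybl1, a relative of B-Myb, fell 2.07-fold. Named after their values were seen, Mybl2, which encodes B-Myb itself, fell from 105 to 63.7 CPM (log2 difference -0.72, SE 0.0431), the MuvB subunit gene Lin54 had a log2 difference of -0.52 (SE 0.0454), and among NF-Y genes Nfyb had -0.63 (SE 0.0507) and Nfyc 0.45 (SE 0.113). Other list genes called lower were E2f4 (log2 difference -0.28), E2f6 (-0.34), E2f7 (-0.11), E2f8 (-0.17) and the pocket protein gene Rbl2 (-0.14). Rb1, Rbl1 and E2f2 were not called. Foxm1, 1 of the 40 genes, was lower as well. Whether any of these bears on the levels of the 40 genes was not tested.

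DNA replication genes, which belong to S phase, were split. Of 51 kept, 21 were higher (41.2%) and 14 lower (27.5%), against 37% and 35.9% of all genes tested. The median log2 difference of the list was 0.07. Gins3, a subunit of the replicative helicase, fell 1.97-fold, while Orc1, a subunit of the origin recognition complex, rose 1.63-fold. The counts and medians of these lists stand beside those of the 40 genes as descriptions, and the difference between lists was not tested.

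**Figure D5:**
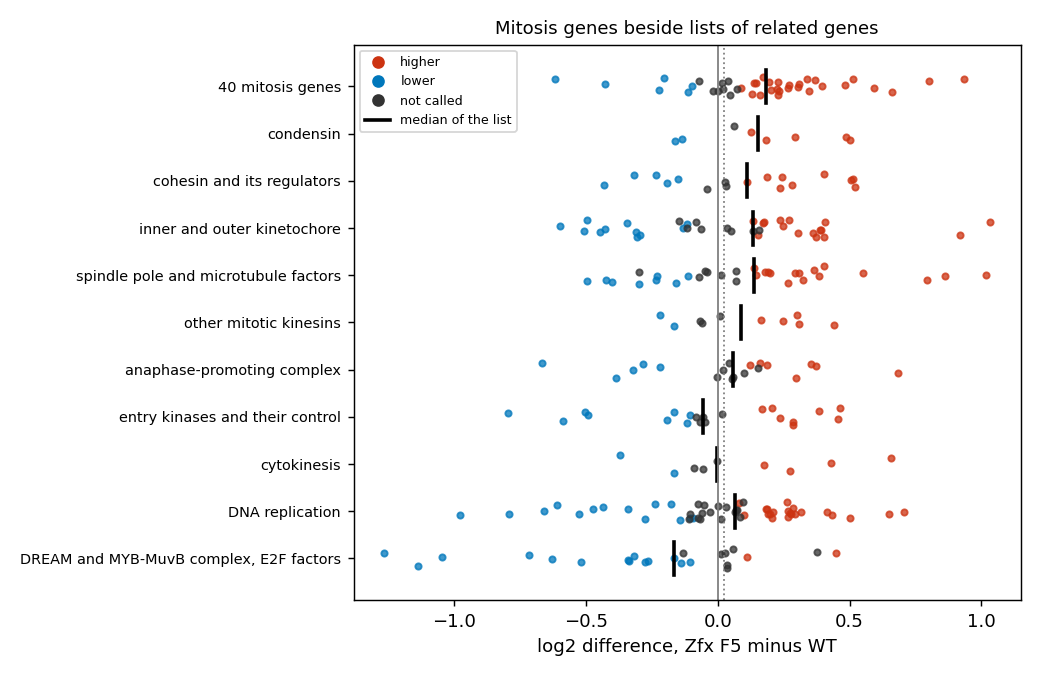
Log2 differences of Zfx F5 minus WT for the 40 mitosis genes and 10 lists of related genes, 1 point per gene kept, in red where called higher, blue where called lower and dark grey where not called, with a black bar at each list's median and a dotted line at the median of all genes tested (0.02). The median is 0.18 for the 40 genes, 0.07 for DNA replication and -0.17 for the E2F and MuvB list.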

How the data were processed

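The authors deposited 1 table of log2 values per gene and library, called normalized in the table's name, with builds mm10 and GRCh38 listed in the submitters' processing notes. Which aligner or counter they used is not given here in any label or header. The lowest value is -4.82 in each column. Undoing the log2 and subtracting that floor gave columns that sum to 1000000, so the deposited log2 values are log2(CPM + 0.0353). Below 300 reads, 100% of values were whole multiples of 1 read within 0.05 read, which gave the read totals. The deposited size column equals the summed exon length, another value of the authors. No sample column was left unused.

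The 12279 genes whose log2 values averaged 0 or more across all 6 libraries were compared with limma 3.58.1 in R 4.3.3: a linear model of group, robust moderation with a trend, 2-sided, with p-values adjusted by Benjamini-Hochberg over all kept genes and called under 0.05. Differences are Zfx F5 minus WT on the log2(CPM + 0.0353) scale. The pipeline was also run on simulated reads in which only a small share of genes differed. That run does not check the calls or the scaling where 72.9% of genes are called. For any 1 gene, the smallest exact permutation p that 3 and 3 libraries allow is 0.1. Replicate numbers follow accession order. Reads per listed gene and library ranged from 235 to 19676, which bounds the precision along with the 3 libraries per group.

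Positions come from GENCODE M21 (mm10), matched by gene identifier, and the table's exons lay inside the annotated gene for all 40. Windows of 50 bases were compared with GENCODE transcripts on both strands. Promoters come from RefSeq on GRCm38.p6. Values per library are given for listed genes called at a log2 difference of at least 0.5 in size, the 4 largest in each direction, the leader of each role, and those with the most or fewest reads. From other lists the 3 largest called genes are named, except 1 that is not reported here. The members and lists were chosen with earlier results of these data known. Alternatives were other filters, constants, scalings and moderation, voom weights on recovered reads, adjustment for length or GC content, and leaving out each library.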

Additional observations from a re-analysis of the deposited data

How the results depend on the processing

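Of the 17 alternatives, 3 were chosen after seeing the data: voom weights on recovered reads, and adjustment for exon length or for GC content. The number of the 40 genes called higher ranged from 23 to 29 and the number called lower from 5 to 6, and no called gene changed direction. Shares of all genes called are given here only for the fit without these changes, so counts under the alternatives have no matching background. Leaving out a library in turn gave 23 to 26 higher and 6 lower. The same call was kept under all 17 alternatives by 27 genes, 22 of them higher and 4 lower. With quantile normalization the median over the 40 genes was 0.23 in place of 0.18, and Hmmr and Birc5 passed as higher (limma adjusted p = 0.0176 and 0.0309).

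Small lists moved more. After adjustment for exon length, 3 cohesin genes were lower in place of 5. Lower cytokinesis genes numbered 4 in place of 2 with TMM scaling and with GC adjustment, and 2 to 4 when a library was left out. Of the E2F and MuvB list, 1 gene was higher in place of 2 without the filter and with TMM scaling, and 1 to 2 when a library was left out. With quantile normalization 5 entry kinase genes were lower in place of 8. Without the filter 1 of the other kinesins was lower in place of 2, and 1 to 2 when a library was left out. The cause was not tested. TMM factors were computed without edgeR, and the edgeR and DESeq2 tests were not run, since the deposited values are not counts. No paired analysis was possible because the labels give no replicate numbers. Counting error limits the genes with few reads, such as Pttg1 with 235 in 1 library, and 3 libraries per group and 1 clone limit all of them.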
